A study of Saccharomyces cerevisiae with 24 samples.

Results

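The Ras and protein kinase A (PKA) pathway of Saccharomyces cerevisiae was described through 9 of its genes, GPR1, GPA2, RAS1, RAS2, CYR1, BCY1, TPK2, TPK3 and PDE1, chosen by name from the 6612 transcripts of the deposited expression table. All 9 had a mean of at least 1 TPM, the deposited measure of transcript abundance, and were tested. The data are 24 RNA-seq libraries, 2 replicates for each of 3 strains in 4 conditions. Every strain carries SFP1-MYC::KanMX, a tagged copy of the gene for the ribosome biogenesis activator Sfp1, in a background that the labels give as ura3-1, trp1-1 and can1-100, with ade2-1, his3-11,15 and a mutant leu2 allele. The strain list of the study places these tagged strains instead in LPY3431, in which HIS3 and TRP1 are deleted. Both transcripts were listed at 0 in all 24 libraries, against the alleles in the labels. The WT strain has no other change in Sfp1, while in K655/657R and K655/657Q the lysines given in the strain names were replaced by arginine or by glutamine, the latter as a mimic of acetylated lysine. Cells were grown to exponential phase in YPD (2% glucose), washed and grown in 2% raffinose, a poorer carbon source. They were sampled again 15 min and 30 min after glucose had been added to the raffinose culture, to 2%. Whether the 2 replicates of a group were separate cultures is not stated, so that p-values measure only the spread between these libraries, which may be technical. A library that stood apart from the others was left out, as the study did. It is replicate 2 of K655/657R at 30 min, and the replicate that remained there gives values without a test.

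PKA is the kinase by which yeast couples glucose to growth. Glucose acts on adenylate cyclase through the small GTPases Ras1 and Ras2 and through the receptor Gpr1 with its G protein alpha subunit Gpa2, and the cAMP formed releases catalytic subunits, among them Tpk2 and Tpk3, from the inhibitory subunit Bcy1. The phosphodiesterases Pde1 and Pde2 break cAMP down, and active PKA holds back the stress response activators Msn2 and Msn4. This control is exerted largely on the proteins, whereas the measurements here are of their transcripts.

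The upstream sequences of the 2 Ras genes, of TPK2 and TPK3, and of GPA2 are shown because the transcripts of these related or neighbouring components moved apart. Each is a run of 200 bases, 5′ to 3′ on the coding strand of the R64 reference, that ends 100 bases before the start codon. The 100 bases next to the start codon are not printed. Capitals mark a stress response element (AGGGG or CCCCT, the site bound by Msn2 and Msn4) or a PAC element (GATGAG or CTCATC, common before ribosome biogenesis genes).
RAS1 (chrXV:514944-515143, forward strand): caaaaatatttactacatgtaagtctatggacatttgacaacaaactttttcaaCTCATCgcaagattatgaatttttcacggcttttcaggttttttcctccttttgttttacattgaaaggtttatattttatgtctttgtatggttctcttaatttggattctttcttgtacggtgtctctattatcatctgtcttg
RAS2 (chrXIV:440671-440870, reverse strand): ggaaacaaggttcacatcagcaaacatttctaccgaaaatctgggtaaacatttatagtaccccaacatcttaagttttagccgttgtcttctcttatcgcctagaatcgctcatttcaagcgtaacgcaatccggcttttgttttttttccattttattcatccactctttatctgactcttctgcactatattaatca
TPK2 (chrXVI:165956-166155, forward strand): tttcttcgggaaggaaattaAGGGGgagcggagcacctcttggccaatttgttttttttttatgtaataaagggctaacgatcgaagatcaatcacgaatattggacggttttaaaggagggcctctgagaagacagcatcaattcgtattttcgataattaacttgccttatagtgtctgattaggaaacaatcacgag
TPK3 (chrXI:135806-136005, reverse strand): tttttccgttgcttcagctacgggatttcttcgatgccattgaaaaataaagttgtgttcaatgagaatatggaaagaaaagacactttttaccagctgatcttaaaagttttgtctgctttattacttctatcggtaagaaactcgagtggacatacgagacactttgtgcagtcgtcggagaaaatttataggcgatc
GPA2 (chrV:194868-195067, forward strand): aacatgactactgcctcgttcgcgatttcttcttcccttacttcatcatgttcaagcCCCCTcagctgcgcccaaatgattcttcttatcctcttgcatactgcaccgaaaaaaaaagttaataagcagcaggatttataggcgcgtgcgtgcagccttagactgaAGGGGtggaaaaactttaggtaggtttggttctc

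RAS1 and RAS2 lie on different chromosomes, as do TPK2 and TPK3, and none of the 9 coding sequences overlaps another annotated one. Over the whole 300 bases before the start codon, and on both strands, RAS1 held a PAC element beginning 246 bases before the start codon and RAS2 held none. PAC occurs in 18.6% of the 5897 windows of this length, and in 1 of the 9 described here. RAS1 also held the palindrome AAAATTTT, which Sfp1 has been associated with, 24 bases before its start codon, as 9.56% of all windows do, and it was the only one of the 9 to do so. TPK2 held a stress response element at -280 and TPK3 held none, while GPA2 held 2, at -243 and -134. Of the 9 windows 4 held such an element (those of GPA2, CYR1, TPK2 and PDE1) against 22.5% of all windows, and 3.49% of all windows held at least 2. The box CCAAT or ATTGG was found in 2 of the 9 windows, those of TPK2 and PDE1, and in 42.3% of all. A match is a run of letters and not evidence of binding.

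The paralogs have few bases in common over which reads could be confused. The longest run of bases shared by the coding sequences of RAS1 and RAS2 was 17 bases and that of TPK2 and TPK3 was 14 bases, both shorter than the 31 bases used here to look for shared stretches. The run shared by the Ras genes is shown because it is the longest identity between them, and it lies in the stretch that codes for the GTP-binding loop.
RAS1 and RAS2 (chrXV:515304-515320 in RAS1, forward strand): gttggtaaatctgcttt
Of the 9 genes, only GPR1 shared any stretch of 31 bases with another transcript, at 0.14% of its positions.

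The authors deposited TPM, which sum to 1000000 in every library and are corrected for transcript length, so that the levels of different genes can be set side by side but the number of reads behind a value is unknown. Each library was brought to a common scale with its median-of-ratios factor (0.802 to 1.14), which gives the scaled TPM used below. Tests were made with limma on log2(scaled TPM + 1) over the 6357 genes with a mean of at least 1 TPM and the 23 libraries kept, and fold changes are on this scale, which understates changes of weakly expressed genes. Calls needed both an adjusted p (Benjamini-Hochberg) under 0.05 and at least a 1.5-fold change, and "rose" and "fell" are used for called genes only. For 1 gene, permuting 2 against 2 libraries exactly allows no p below 0.333. The root mean square difference between replicates, in log2 units over all genes, was 0.16 to 0.24. SFP1 itself had a scaled TPM in YPD of 11.6 and 12.5 (WT), 10.9 and 10.7 (K655/657R) or 16.5 and 14.7 (K655/657Q). ACT1, the transcript against which the study normalised its qPCR, was not constant, with a scaled TPM of 2711 and 2647 in WT in YPD, 1602 and 1642 in raffinose and 1345 and 1468 at 15 min.

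In WT cells, raffinose lowered the transcripts of most of the pathway and raised that of RAS1. RAS1 rose 2.26-fold, whereas RAS2, CYR1, GPA2, BCY1, TPK2 and PDE1 fell by 1.61-fold to 2.23-fold. The comparison asks how growth on the poorer carbon source changed the transcripts. Of the 9 genes 7 were called, 1 higher and 6 lower, where 37.5% of all tested genes were called (19% higher and 18.5% lower), and the median log2 fold change was -0.80 over the 9 and 0.03 over all genes. On the adjusted p alone 8 of the 9 passed, against 68.6% of all genes.

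RAS1, one of the GTPases that stimulate adenylate cyclase, had a scaled TPM of 31.2 and 27.5 in WT in YPD and of 69.2 and 65.9 in raffinose. The values did not overlap, and the log2 fold change was 1.18 (SE 0.088, adjusted p = 9.1e-09 by limma). RAS2, the other GTPase and the more abundant of the pair in YPD, had 106 and 124 in YPD and 55.1 and 64.6 in raffinose, a log2 fold change of -0.93 (SE 0.11, adjusted p = 2.7e-06). The pair thus moved in opposite directions, and in raffinose both transcripts stood between 55.1 and 69.2 scaled TPM.

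Of the receptor branch, GPA2 had a scaled TPM of 43.5 and 44.6 in YPD and 19.1 and 25.3 in raffinose, a fall of 0.97 on the log2 scale (SE 0.12, adjusted p = 2.8e-06). GPR1, the receptor that signals through Gpa2, was not called, with 9.06 and 9.57 in YPD and 9.36 and 10.1 in raffinose (log2 fold change 0.06, 95% interval -0.10 to 0.22). The receptor and its G protein therefore differed in their response at the transcript level. CYR1, which encodes adenylate cyclase, had 12.0 and 11.6 in YPD against 6.27 and 6.50 in raffinose, a log2 fold change of -0.80 (SE 0.069).

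Among the kinase subunits, TPK2 had a scaled TPM of 60.3 and 59.1 in YPD and 30.6 and 31.6 in raffinose. BCY1, the inhibitory subunit, had 161 and 150.0 in YPD and 101 and 91.0 in raffinose, so that catalytic and inhibitory transcripts were both lower. TPK3 went the other way but below the fold threshold, with 7.18 and 7.78 in YPD and 10.4 and 9.93 in raffinose (log2 fold change 0.40, SE 0.084, adjusted p = 5.8e-04). PDE1, the low-affinity phosphodiesterase, fell most of the 9, from 38.3 and 36.9 to 15.8 and 16.8 (log2 fold change -1.16, SE 0.099).

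**Figure D1:**
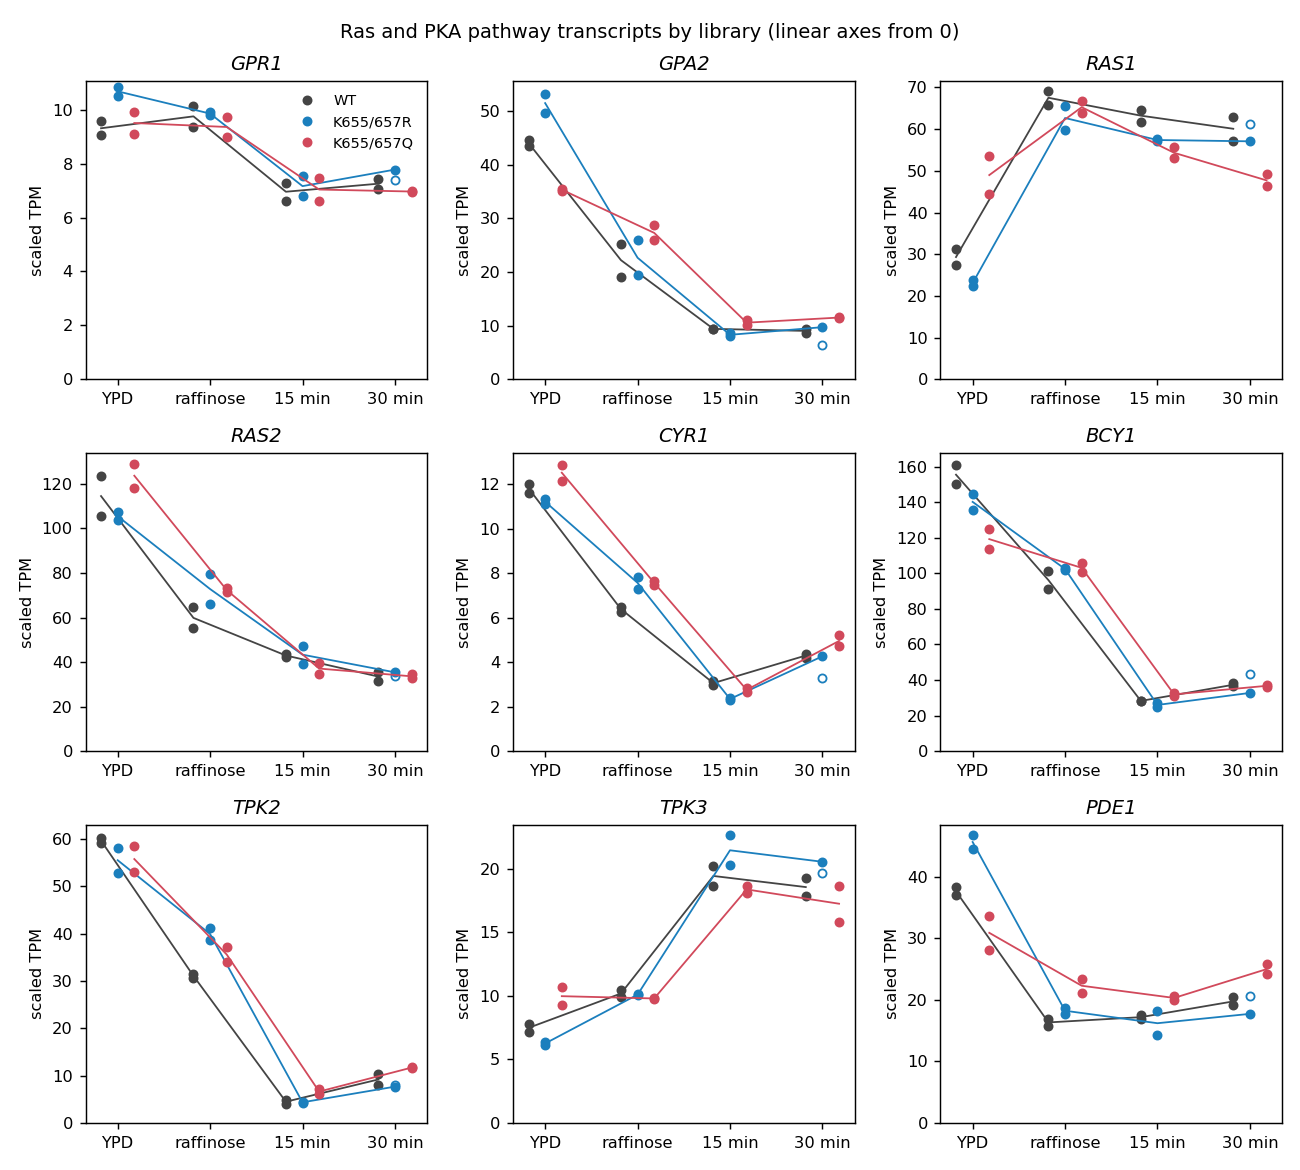
Scaled TPM (linear axes from 0) of the 9 transcripts in YPD, in raffinose and 15 and 30 min after glucose addition. Filled points are the libraries fitted, lines join the group means of each strain, and the open point is the library left out. TPK2 dropped from 60.3 and 59.1 in WT in YPD to 4.07 and 4.89 at 15 min, while TPK3 and RAS1 went up.

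These directions depended on the scaling. On TPM as deposited the median of all genes moved to 0.40, 82.4% of all called genes were higher in place of 50.8%, and 3 of the 9 were called, RAS1 and TPK3 higher and PDE1 lower. Scaled to ACT1 the median of all genes moved to 0.67, 93.3% of all called genes were higher, and the 3 called were GPR1, RAS1 and TPK3, all higher. BCY1 then had 0.03. Relative to that median the 6 genes that fell lay from -0.64 for BCY1 to -1.12 for PDE1 on the log2 scale, and RAS1 was 1.21 above it. A scaling shifts all genes of a library nearly alike, so positions relative to the median could hardly change.

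In K655/657R, 4 of the 9 genes were called in raffinose against YPD, 2 higher and 2 lower, with 34.3% of all genes called (17.4% higher and 16.9% lower), and 8 of the 9 passed on the adjusted p alone, as did 66.3% of all genes. RAS1 rose from 23.8 and 22.4 to 59.9 and 65.5 scaled TPM and TPK3 from 6.34 and 6.17 to 10.1 and 10.1. GPA2 fell from 49.7 and 53.2 to 19.4 and 25.9 and PDE1 from 44.4 and 46.8 to 17.7 and 18.7. RAS2, CYR1, BCY1 and TPK2 had log2 fold changes of -0.53, -0.51, -0.45 and -0.47, each with an adjusted p under 0.05 but less than 1.5-fold. Of all called genes 84.9% were higher on TPM as deposited and 90.8% with ACT1 scaling. Scaled to ACT1, where the median of all genes was 0.57, these 4 values lay between 0.05 and 0.17 and thus changed sign. All 4 were below that median, a position that a change of scaling leaves nearly as it was. RAS2 was called, at -0.66, without K655/657R raffinose replicate 2, and TPK3 was not called, at 0.42, with a pseudocount of 5.

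In K655/657Q, 3 of the 9 genes were called, all lower, with 20.6% of all genes called (11.5% higher and 9.11% lower), and 7 of the 9 passed on the adjusted p alone, as did 52.3% of all genes. They were RAS2 (129 and 118 scaled TPM in YPD, 73.2 and 71.5 in raffinose), CYR1 (12.2 and 12.9 against 7.48 and 7.65) and TPK2 (53.0 and 58.5 against 37.2 and 34.0). The log2 fold change of TPK2, -0.63, was close to the threshold, and it was -0.56 without K655/657Q YPD replicate 2 and -0.57 without K655/657Q raffinose replicate 2, neither of them called. RAS1, GPA2 and PDE1, which were called in the other strains, had log2 fold changes of 0.41, -0.36 and -0.45 here. On TPM as deposited none of the 9 was called lower and RAS1 was called higher, at 0.62, and 80.9% of all called genes were higher in place of 55.7%. Scaled to ACT1 the 1 call was RAS2, lower, and 72.4% of all called genes were higher.

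**Figure D2:**
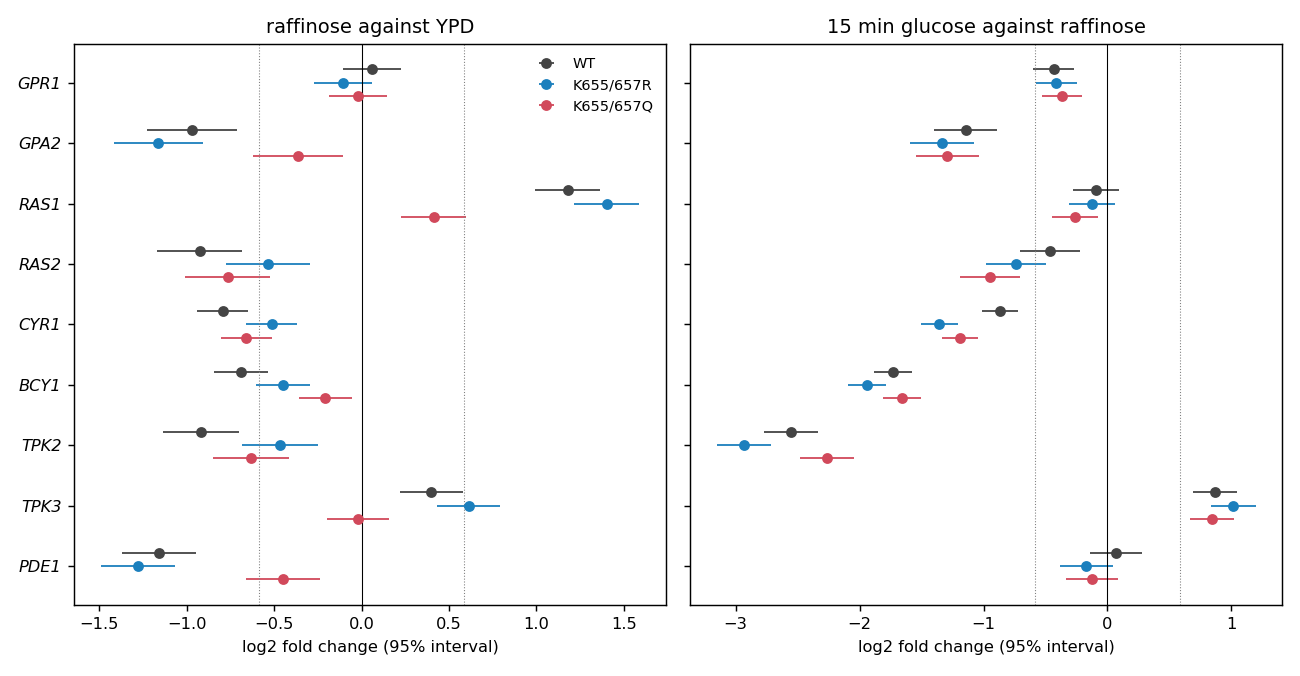
Log2 fold change of each transcript in raffinose against YPD and at 15 min of glucose against raffinose, by strain. Points are limma estimates, bars are 95% intervals and dotted lines mark a 1.5-fold change. RAS1 in raffinose was at 0.41 in K655/657Q and at 1.18 and 1.40 in WT and K655/657R.

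Within 15 min of adding glucose back, several of the transcripts moved further from their YPD levels. In WT, TPK2 fell 5.87-fold and BCY1 3.32-fold below their raffinose levels, GPA2 and CYR1 fell 2.21-fold and 1.82-fold, and TPK3 rose 1.83-fold. This comparison follows the first response to the preferred carbon source. Of the 9 genes 5 were called in WT, 1 higher and 4 lower, with 44.6% of all genes called (21.7% higher and 22.9% lower), and the median of the 9 was -0.47 against 0.02 for all genes. In K655/657R 6 were called, 1 higher and 5 lower, with 46.9% of all genes called (22.4% and 24.5%), and in K655/657Q 6 were called, 1 higher and 5 lower, with 40.9% (19.1% and 21.8%). On the adjusted p alone 7, 7 and 8 of the 9 passed in the order WT, K655/657R, K655/657Q, against 73.2%, 74.6% and 71.7% of all genes. In WT 37.3% of all called genes were higher on TPM as deposited and 63% with ACT1 scaling, in place of 48.6%. In K655/657R these shares were 35.6% and 74.7% in place of 47.8%, and ACT1 scaling gave 68.5% in K655/657Q in place of 46.6%.

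TPK2, whose product is a catalytic subunit tied to filamentous growth, had a scaled TPM of 30.6 and 31.6 in WT in raffinose and 4.07 and 4.89 at 15 min. In K655/657R the values went from 38.7 and 41.2 to 4.44 and 4.28, and in K655/657Q from 37.2 and 34.0 to 6.11 and 7.15. The log2 fold changes were -2.55, -2.93 and -2.26 in the 3 strains (SE 0.10 each, adjusted p at most 2.1e-11 by limma), the largest among the 9 genes in each strain. BCY1 followed, with 101 and 91.0 against 28.4 and 28.1 in WT. K655/657R had 102 and 103 against 26.9 and 25.1, and K655/657Q had 106 and 101 against 30.9 and 32.9. Its log2 fold changes were -1.73, -1.94 and -1.66 (SE 0.072 each).

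TPK3, which also encodes a catalytic subunit, went up in every strain. Its scaled TPM was 10.4 and 9.93 against 18.6 and 20.3 in WT. K655/657R had 10.1 and 10.1 against 20.3 and 22.7, and K655/657Q had 9.77 and 9.82 against 18.7 and 18.1. The log2 fold changes were 0.87, 1.02 and 0.84 (SE 0.084 each), and no raffinose library reached a 15 min one.

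CYR1 stood at 6.27 and 6.50 in WT in raffinose and 2.95 and 3.16 at 15 min, and at 7.29 and 7.84 against 2.31 and 2.38 in K655/657R. In the order WT, K655/657R, K655/657Q its log2 fold change was -0.86, -1.36 and -1.19, and with a pseudocount of 5 the value in WT was -0.50 and not called. GPA2 fell further from its raffinose level to 9.41 and 9.38 in WT, while K655/657R reached 7.98 and 8.60 and K655/657Q reached 11.0 and 10.1. RAS2 fell in K655/657R (log2 fold change -0.74) and K655/657Q (-0.95), and in WT it had 43.5 and 42.4 scaled TPM at 15 min, with a log2 fold change of -0.47 that was not called. With ACT1 scaling the call in K655/657R was lost (-0.29), and on TPM as deposited RAS2 was called in WT (-0.62).

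RAS1 kept a level near that in raffinose, at 61.8 and 64.7 in WT at 15 min (log2 fold change -0.09, 95% interval -0.28 to 0.09). PDE1 also showed no called change in WT, at 17.5 and 16.9 (log2 fold change 0.07, 95% interval -0.14 to 0.28). The signs of these small changes were not stable, since that of RAS1 was 0.11 scaled to ACT1 and that of PDE1 was -0.08 on TPM as deposited. GPR1 had 6.62 and 7.30 in WT, a log2 fold change of -0.44 (adjusted p = 9.8e-05) that stayed under the fold threshold.

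By 30 min TPK2 had begun to come back. It rose 1.85-fold between 15 and 30 min in WT, to 10.3 and 8.08 scaled TPM, and 1.67-fold in K655/657Q, to 11.7 and 11.7. In WT it was the only one of the 9 called between the time points (8.7% of all genes were called, 2.91% higher and 5.79% lower), and 4 of the 9 passed on the adjusted p alone, as did 34.7% of all genes. In K655/657Q CYR1 was called as well, from 2.85 and 2.66 to 4.71 and 5.198, and 8.57% of all genes were called (2.17% higher and 6.4% lower). There 4 of the 9 and 30.6% of all genes passed on the adjusted p alone. Of all called genes, between 18.3% and 52.5% were higher in WT over the other scalings in place of 33.5%, and up to 49.4% in K655/657Q in place of 25.3%, with the same numbers of the 9 called. BCY1 in WT moved from 28.4 and 28.1 to 38.3 and 36.4, a log2 fold change of 0.39 that was not called.

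Against raffinose, 5 of the 9 genes were called at 30 min in WT, 1 higher and 4 lower, with 42.5% of all genes called (20.1% higher and 22.3% lower). The same numbers were called in K655/657Q, where 38.3% of all genes were called (17% higher and 21.3% lower). On the adjusted p alone 8 of the 9 passed in each strain, against 72.3% of all genes in WT and 70.3% in K655/657Q. In both strains the gene that rose was TPK3 and those that fell were GPA2, RAS2, BCY1 and TPK2. In WT the set changed with the scaling, since on TPM as deposited 0 were higher and 6 lower (TPK3 was at 0.57) and with ACT1 scaling RAS2 was at -0.58 and not called. The share of all called genes that were higher was 27.9% and 65% under these scalings in WT, in place of 47.4%, and 75.4% with ACT1 scaling in K655/657Q, in place of 44.4%. RAS2 reached its lowest group means, with 31.6 and 35.4 in WT and 34.5 and 32.7 in K655/657Q. In the single K655/657R library kept, TPK2 was at -2.24 and TPK3 at 0.96 relative to the raffinose mean on the log2 scale, with no replicate check.

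In these transcripts, cells 30 min into glucose were thus unlike cells in steady YPD. Both had 2% glucose, but the media were not matched. The 30 min cells were in the raffinose medium to which glucose had been added, and they had been washed and cultured for longer. In WT 8 of the 9 genes were called against YPD, 2 higher and 6 lower, with 47.9% of all genes called (22.4% higher and 25.5% lower), and on the adjusted p alone all 9 passed, against 75.9% of all genes. TPK2 was 5.99-fold, BCY1 4.08-fold and RAS2 3.35-fold lower than in YPD, and GPA2 was at -2.17 on the log2 scale, while TPK3 was 2.31-fold and RAS1 2.02-fold higher. Scaled to ACT1, the log2 fold change of PDE1 went from -0.90 to 0.04, and that of CYR1 from -1.27 to -0.42, under the threshold, with the median of all genes at 0.88 and 87.6% of all called genes higher in place of 46.8%. In K655/657Q 6 of the 9 were called, 1 higher and 5 lower, with 35.5% of all genes called (16% higher and 19.5% lower), and 8 passed on the adjusted p alone, as did 68.2% of all genes. RAS1 was not among them, at 44.4 and 53.6 scaled TPM in YPD and 46.3 and 49.2 at 30 min (log2 fold change -0.03, 95% interval -0.22 to 0.16). Its sign was unstable, at 0.17 on TPM as deposited and 0.50 scaled to ACT1, where 83.8% of all called genes were higher in place of 45.1%.

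Ratios between members within a library do not depend on the scaling, and 2 of them were computed after the levels had been seen. The ratio of RAS2 to RAS1 was 2.21 to 4.63 in the 6 libraries in YPD, 0.796 to 1.21 in raffinose and 0.618 to 0.821 at 15 min, so that RAS2 went from the more to the less abundant Ras transcript. At 30 min it was 0.501 to 0.747 in 5 libraries. In YPD the ratio was 2.91 and 2.21 in K655/657Q and 3.38 to 4.63 in the 4 libraries of the other strains, without overlap.

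The ratio of TPK2 to TPK3 was 4.97 to 9.18 in YPD, 2.93 to 4.07 in raffinose, 0.189 to 0.395 at 15 min and 0.373 to 0.741 at 30 min. From raffinose to 15 min of glucose it was 13.8-fold lower, and TPK3 then exceeded TPK2 in every library. The ratio of RAS2 to RAS1 was 3.42-fold lower in raffinose than in YPD and 1.48-fold lower again at 15 min, as means over the strains. Since the ratios were chosen for these values, they are given without a test.

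**Figure D3:**
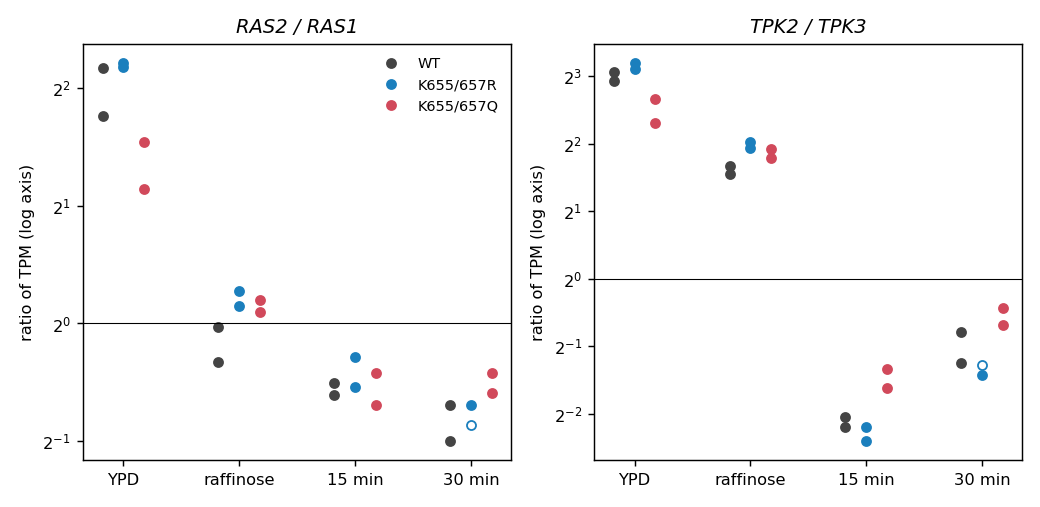
Ratio of scaled TPM within each library (log axes) for RAS2 over RAS1 and for TPK2 over TPK3. Points are libraries by strain, the open point is the library left out, and the horizontal line marks equal levels. RAS2 over RAS1 was above 2 in every YPD library and 0.618 to 0.821 at 15 min.

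Fewer of the 9 transcripts were called between strains than between carbon sources, as was also so for all genes. In YPD, RAS1 was the only one called in K655/657Q against WT, 1.64-fold higher, where 13.7% of all genes were called (6.69% higher and 7.06% lower). Its scaled TPM was 31.2 and 27.5 in WT and 44.4 and 53.6 in K655/657Q, without overlap, and the log2 fold change was 0.72 (SE 0.088, adjusted p = 9.0e-06 by limma). The call rested on 1 library, since without K655/657Q YPD replicate 2 the log2 fold change was 0.58, just below the threshold of 0.585. In the same comparison BCY1 was at -0.38, TPK3 at 0.37, GPA2 at -0.31 and PDE1 at -0.28, all with an adjusted p under 0.05 and less than 1.5-fold, so that 5 of the 9 passed on the adjusted p alone, against 41.8% of all genes. Scaled to ACT1, with the median of all genes at 0.40, BCY1, GPA2 and PDE1 were at 0.06, 0.12 and 0.15, and TPK3 was called at 0.74. Of all called genes 73.3% were higher on TPM as deposited and 92.6% with ACT1 scaling, in place of 48.6%.

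The effect of K655/657Q on RAS1 was not the same in both media. In raffinose RAS1 had 63.9 and 66.7 scaled TPM in K655/657Q against 69.2 and 65.9 in WT (log2 fold change -0.05), and the difference between the effect in raffinose and that in YPD was -0.77 (SE 0.12, adjusted p = 1.7e-04). Of the 9 genes 3 were called for this difference, 2 higher and 1 lower, with 20.1% of all genes called (10.7% higher and 9.39% lower), and 5 passed on the adjusted p alone, as did 37.2% of all genes. PDE1 was the second, at 28.1 and 33.7 in K655/657Q in YPD and 21.2 and 23.4 in raffinose, with a difference of 0.71 (SE 0.14, adjusted p = 9.8e-04). GPA2 was the third, at 35.5 and 35.1 in YPD and 28.7 and 25.9 in raffinose, with a difference of 0.61 (SE 0.17, adjusted p = 0.011). The direction of the calls turned with the scaling. On TPM as deposited 0 of the 9 were higher and 2 lower (RAS1 and TPK3) and 28% of all called genes were higher in place of 53.2%, and with ACT1 scaling 0 were higher and 3 lower (GPR1 as well) and 4.77% of all called genes were higher. Relative to the median of all genes, RAS1 lay between -0.78 and -0.82, PDE1 between 0.65 and 0.69 and GPA2 between 0.55 and 0.59 under all 4 scalings. Subtracting the median takes out the shift that a scaling gives to all genes. This agreement was therefore built in and does not show that the calls are stable. PDE1 was at 0.58 without K655/657Q YPD replicate 1. GPA2 was at 0.58 without WT YPD replicate 2, at 0.41 without WT raffinose replicate 1 and at 0.53 without K655/657Q raffinose replicate 1, none of them called.

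**Figure D4:**
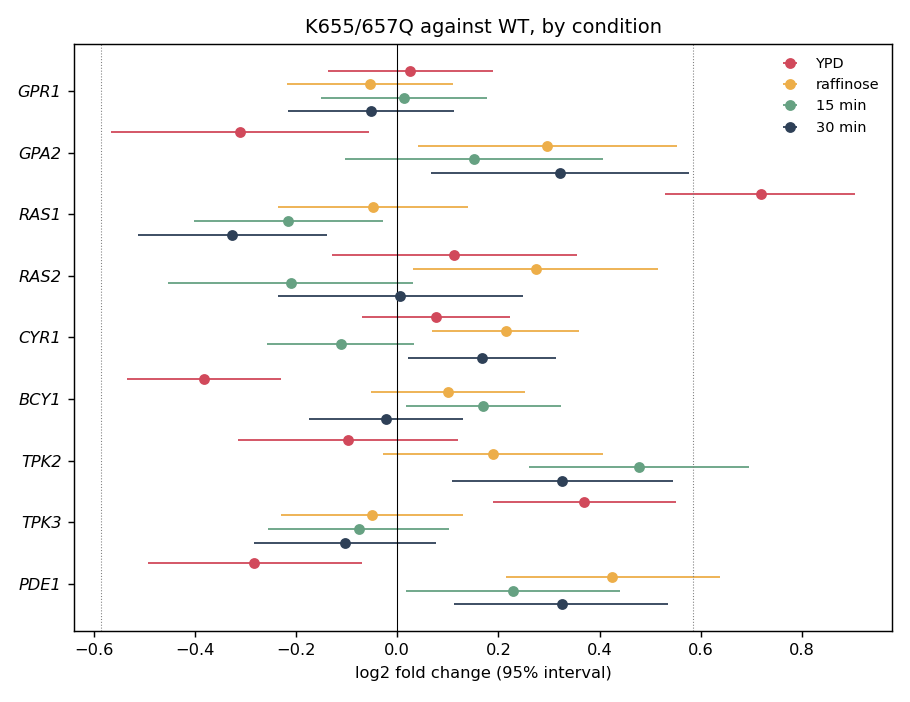
Log2 fold change of K655/657Q against WT for each transcript in the 4 conditions. Points are limma estimates, bars are 95% intervals and dotted lines mark a 1.5-fold change. RAS1 in YPD, at 0.72, is the only estimate outside the dotted lines.

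None of the 9 genes was called in K655/657Q against WT in raffinose, at 15 min or at 30 min, where limma called 3.57%, 4.73% and 3.9% of all genes. At an unadjusted p under 0.05 there were 4, 4 and 5 of the 9, and on the adjusted p alone 2, 1 and 3, against 21%, 22.4% and 21.1% of all genes. The largest differences in each were PDE1 in raffinose (0.43, 95% interval 0.21 to 0.64), TPK2 at 15 min (0.48, 95% interval 0.26 to 0.70) and, in opposite directions at 30 min, TPK2 (0.33) and RAS1 (-0.33). TPK2 at 15 min was called at 0.59 without WT 15 min replicate 2. No difference in the response to glucose between K655/657Q and WT was called by limma among the 9, at 15 min (2.96% of all genes) or at 30 min (4.04%), with 2 and 1 of the 9 at an unadjusted p under 0.05.

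For K655/657R against WT, none of the 9 was called by limma in YPD (1.64% of all genes), in raffinose (0.173%) or at 15 min (0%), and 4, 3 and 1 of them had an unadjusted p under 0.05. The largest differences were RAS1 in YPD (-0.33, adjusted p = 0.025, the only 1 to pass on the adjusted p alone, as did 11.2% of all genes), TPK2 in raffinose (0.35, adjusted p = 0.12) and CYR1 at 15 min (-0.28, adjusted p = 0.15). No difference in the effect of K655/657R between raffinose and YPD was called by limma for the 9 (2.47% of all genes were called and 4 of the 9 had an unadjusted p under 0.05), with TPK2 at 0.45 (95% interval 0.15 to 0.76). The 15 min response of CYR1 differed between K655/657R and WT by -0.49 on the log2 scale (SE 0.097, adjusted p = 0.0497), which was not called. Over the alternatives this value ranged from -0.28 to -0.61 and its adjusted p from 0.0356 to 0.207. In that comparison limma called 0.283% of all genes and none of the 9 (2 of the 9 at an unadjusted p under 0.05), and 0.33% of all genes passed on the adjusted p alone.

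The order of the transcripts by level changed with the medium. In WT in YPD the scaled TPM (mean ± SD, n = 2) ran from BCY1 (156 ± 7.78), RAS2 (115 ± 12.8), TPK2 (59.7 ± 0.822), GPA2 (44.0 ± 0.764) and PDE1 (37.6 ± 0.928) to RAS1 (29.3 ± 2.64), CYR1 (11.8 ± 0.289), GPR1 (9.31 ± 0.361) and TPK3 (7.48 ± 0.421). At 15 min of glucose RAS1 came first (63.2 ± 2.02), before RAS2, BCY1 and TPK3 (19.4 ± 1.15), and CYR1 (3.06 ± 0.147) came last behind TPK2 (4.48 ± 0.579). The libraries of neighbouring genes did not overlap in either order. Over the 23 libraries TPK2 had the widest range, 14.8-fold, and GPR1 the narrowest, 1.64-fold.

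Of the other pathway genes, 8 regulators of cAMP and PKA gave 1 higher and 1 lower call in WT in raffinose (19% and 18.5% over all genes), with a median log2 fold change of -0.009. PDE2, the high-affinity phosphodiesterase, went from 14.3 and 12.5 to 26.1 and 24.1 and then to 116 and 130.3, a rise at both steps (0.86 and 2.25). SRV2, the cyclase-associated protein, fell by 1.45 in raffinose. At 15 min 3 of this list were called higher, among them PDE2 and RGS2 (1.12), a regulator that deactivates Gpa2, and 0 were lower (21.7% and 22.9% over all genes). The rise of PDE2 was smaller in K655/657Q than in WT, with a difference of -0.82 at 15 min (adjusted p = 8.8e-04) and of -0.91 at 30 min (adjusted p = 2.4e-04). Part of this difference lay in the starting level. In K655/657Q PDE2 had 34.1 and 37.2 scaled TPM in raffinose, above WT, and 90.1 and 105.4 at 15 min, below WT. K655/657R also started above WT and ended below it, from 31.2 and 30.6 to 103 and 102.2, but its difference in response was not called. The differences in PDE2 level from WT, in raffinose and at 15 min, were not called in either mutant.

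The list of 12 genes for the Ras cycle and its membrane attachment had 0 higher and 2 lower calls in WT in raffinose and 0 and 3 at 15 min, where 37.5% and 44.6% of all genes were called in either direction. TFS1, an inhibitor of carboxypeptidase Y that also acts on the Ras GTPase-activating protein Ira2, fell by 2.28 in raffinose, and IRA1, another GTPase-activating protein, fell by 0.85 at 15 min (-0.54 and not called with a pseudocount of 5). TFS1 in K655/657Q against WT was at -0.97 in YPD, 0.62 in raffinose and 1.05 at 15 min. With ACT1 scaling the calls in YPD (-0.52) and raffinose (0.47) were lost, and that in raffinose was also lost with a pseudocount of 5 (0.58), with all 24 libraries (adjusted p = 0.056) and without K655/657Q raffinose replicate 2 (0.55). Among 10 effectors of PKA, 2 were higher and 2 lower in raffinose, with MSN4 at -1.48, and 0 and 4 at 15 min, against the same shares of all genes, with PFK26, a kinase that makes fructose 2,6-bisphosphate, at -2.56.

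Of 13 stress genes known as targets of Msn2 and Msn4, 3 were called higher and 8 lower in WT in raffinose, and 0 and 11 at 15 min, with medians of -1.05 and -1.83. Over all genes 19% were called higher and 18.5% lower in raffinose and 21.7% and 22.9% at 15 min. TSL1, of the trehalose synthase complex, was at -2.71 and CTT1, a catalase, at -2.00 in raffinose. DDR2, also among the 13, went the other way there, from 466 and 427 scaled TPM in YPD to 1510 and 1518 in raffinose. At 15 min against raffinose DDR2 was at -4.67 and GSY2, a glycogen synthase, at -3.50. In K655/657Q against WT, 1 of the 13 was called higher in YPD, 5 in raffinose, 8 at 15 min and 5 at 30 min, and 0 were lower in each. Of all genes 6.69%, 1.4%, 2.27% and 1.1% were called higher in these comparisons. The raffinose difference was not particular to K655/657Q. In K655/657R against WT, 3 of the 13 were called higher and 0 lower in raffinose, and 0 were called in YPD or at 15 min. Of all genes 0.126%, 1.09% and 0% were called higher there, in the order raffinose, YPD, 15 min. In K655/657Q against WT, the small heat shock protein gene HSP26 was at 0.94 in raffinose and 1.42 at 15 min. GPH1, a glycogen phosphorylase, was at 1.35 at 15 min in that comparison. HSP12, also among the 13, had 44.4 and 62.3 scaled TPM in WT at 15 min and 259 and 261 in K655/657Q. Its replicates could lie far apart, with 890 and 119 in K655/657R in raffinose.

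The genes with the most similar course were found by Pearson's r between group means over the 11 groups with 2 libraries, among genes with a mean of at least 10 TPM, as a description only since the groups share strains and media. TPK2 was closest to RIM11 (r = 0.998) and SYP1 (0.996), BCY1 to OSM1 (0.998) and YPF1 (0.997), and TPK3 to HAT1 (0.996) and LSG1 (0.995). GPA2 was closest to PAL2 (0.996) and CLC1 (0.993), CYR1 to YHL017W (0.994) and TFG1 (0.991), and GPR1 to YCT1 (0.983) and YKR075C (0.982). RAS2 was closest to RTC3 (0.982) and TSL1 (0.977), RAS1 to RMD9 (0.969) and ATP23 (0.954), and PDE1 to RVS161 (0.976) and SFT2 (0.975). Among the members themselves, r was 0.989 for TPK2 with BCY1, -0.959 for TPK2 with TPK3, and -0.552 for RAS1 with RAS2.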

How the data were processed

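Poly(A) RNA of 24 samples was sequenced by the authors, who trimmed reads with fastp 0.23.2, checked them with FastQC 0.11.9 and MultiQC 1.12 and quantified them with Kallisto 0.48.0 on the R64-1-1 transcriptome (Ensembl release 109). They deposited TPM and tested counts with DESeq2, which are not used here. Depth is therefore unknown. Whether quantification used strand is not given in the sources used here.

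TPM were scaled by median-of-ratios size factors and fitted as log2(scaled TPM + 1) in R 4.3.3 with limma 3.58.1 (lmFit, eBayes with trend), with 1 mean per strain and condition over 23 libraries, 11 residual degrees of freedom and 24 comparisons. Genes under a mean of 1 TPM (255) were left out. Motifs and shared stretches were read from the R64 reference with numpy 2.4.6 and pandas 2.3.3 under Python 3.11.15, and figures were drawn with matplotlib 3.10.9. The fit was tested on simulated data.

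The members and lists were chosen with earlier results of these data known. Named were all 9 members, SFP1, ACT1, the 2 most similar genes per member, and at most 3 of the larger called changes per list and comparison. The largest change of a list was not always among those named. DDR2 was also named in raffinose, as a stress gene that went up there. Of 44 list genes 43 were found, and 1 further gene of the pathway is not reported here. Of 216 member values over the 24 comparisons, 103 were chosen after their values were seen to be given singly and carried through the alternatives, and the totals over all 216 are given with the alternatives. The ratios were also chosen after the values were seen and are not tested. Alternatives changed the scaling, pseudocount, filter, fold threshold, libraries and replicate block.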

Additional observations from a re-analysis of the deposited data

Results flagged for a closer look

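The effect of K655/657Q against WT differed between raffinose and YPD for 3 of the 9 genes by a test of the difference itself, limma's contrast of both effects, and these differences are given for a closer look. RAS1 was higher in K655/657Q in YPD but not in raffinose, a difference of -0.77 on the log2 scale (adjusted p = 1.7e-04). PDE1 had a difference of 0.71 (adjusted p = 9.8e-04) and GPA2 of 0.61 (adjusted p = 0.011), both lower in K655/657Q than in WT in YPD and higher in raffinose, although neither single effect was called. RAS1 kept its call under all scalings and without each library in turn, and the calls of PDE1 and GPA2 did not hold under every setting. In the library left out, the 9 genes differed from its replicate by -0.55 (GPA2) to 0.40 (BCY1), where all genes differed by a root mean square of 0.75.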

How the results depend on the processing

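Each of the 216 values of the 9 genes was refitted under 9 alternatives that kept all groups. Of the 62 called values, 22 lost the call and 2 changed sign under at least 1 of them, and of the others 11 became called and 58 changed sign. The 103 values given singly were also refitted on the groups compared and without each library, and those of them that changed sign were the following. With ACT1 scaling, BCY1 was at 0.029 in raffinose in WT, and in K655/657R BCY1 was at 0.17, CYR1 at 0.052, RAS2 at 0.086 and TPK2 at 0.15. With ACT1 scaling, RAS1 was at 0.11 at 15 min in WT, PDE1 at 0.035 at 30 min against YPD in WT, and BCY1, GPA2 and PDE1 at 0.061, 0.12 and 0.15 in K655/657Q against WT in YPD. The difference between media for BCY1 was -0.105 with ACT1 scaling. On TPM as deposited, PDE1 at 15 min in WT was at -0.075. RAS1 at 30 min against YPD in K655/657Q was at 0.17 on TPM as deposited, 0.21 with upper quartile scaling, 0.50 with ACT1 scaling and between -0.165 and 0.102 when 1 library was left out, with 0.102 without K655/657Q YPD replicate 2 and 0.009 without K655/657Q 30 min replicate 1.

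The number of the 9 genes called in raffinose against YPD was 3 in WT (2 higher and 1 lower) and 1 in K655/657Q (higher) on TPM as deposited, 3 in WT (all higher) and 1 in K655/657Q (lower) with ACT1 scaling, and 1 in K655/657Q with a pseudocount of 5. ACT1 scaling gave 2 in K655/657Q against WT in YPD. A pseudocount of 5 gave 0 between 15 and 30 min in WT and in K655/657Q, and one of 0.1 gave 1 for the 15 min response of K655/657R minus WT. Without the fold threshold the counts were 8 in K655/657R and 7 in K655/657Q in raffinose, 8 at 30 min against raffinose in WT and in K655/657Q, and 4 between the time points in each. They were 5, 2, 1 and 3 for K655/657Q against WT in YPD, raffinose, 15 and 30 min, 1 for K655/657R against WT in YPD, 5 for the difference between media in K655/657Q and 1 for the 15 min response of K655/657R minus WT. Leaving out 1 library at a time gave 0 to 1 for K655/657Q against WT in YPD and 0 to 1 at 15 min. The calls of GPA2 and PDE1 for the difference between media were lost on TPM as deposited (0.41 and 0.51) and with ACT1 scaling (0.03 and 0.14), and that of GPA2 also with upper quartile scaling (0.57), a pseudocount of 5 (0.54) and all 24 libraries (0.61, adjusted p = 0.064). The cause was not tested.

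The deviations of same-numbered replicates had r from -0.35 to 0.31 over 19 pairs of groups, and the sources used here do not tie a number to a culture, so the numbers were not taken to pair the samples. The replicate block changed no count of calls among the 9 genes (7 in WT in raffinose, 1 in K655/657Q against WT in YPD), and a crossed block, added after the data were seen, also gave 1. Leaving out each library in turn kept the direction of the changes in both ratios. This outcome was fixed in advance, because the libraries of the conditions compared did not overlap within any strain. The depth of the libraries is unknown, so counting error could not be set apart from the spread of 2 replicates.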
